A study of Arabidopsis thaliana with 18 samples.

Results

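The ferritins FER1 to FER4 and the vacuolar iron transporter-like genes VTL1 and VTL2 of Arabidopsis were examined across root and shoot at absent, sufficient and excess phosphate (Pi). The 6 genes were looked up by locus among the 38408 transcripts of the array, of which 17839 carried 1 gene name from the platform table or from the study's supplementary tables. A transcript was found for 2 of the 6 genes, FER1 (AT5G01600, chromosome 5) and VTL1 (AT1G21140, chromosome 1). FER2 (AT3G11050), FER3 (AT3G56090), FER4 (AT2G40300) and VTL2 (AT1G76800) were not among the names used, and their expression was not analysed here.

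Ferritins are protein shells that hold iron in a mineral form, in plants mostly inside plastids, and FER1 is well known as a gene that responds to iron supply. FER1 is also a known target of PHR1, the transcription factor of the Pi starvation response, which was itself not among the named transcripts. VTL proteins belong to the same family as the vacuolar iron transporter VIT1 of Arabidopsis and the yeast transporter CCC1, which move iron from the cytosol into the vacuole. Both kinds of gene therefore serve the storage of iron. Phosphate and iron also meet outside the cell, where phosphate binds iron and lowers its availability to roots.

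Wild-type Col-0 seedlings were grown hydroponically for 5 days in sucrose-containing MS medium. They were then kept for 7 days in modified MS medium with sucrose and iron, at 0 mM (P0), 1.25 mM (P1.25, control) or 20 mM Pi (P20). In the P0 medium KH2PO4 was replaced by K2SO4, whereas P20 was reached with more KH2PO4, so potassium was raised at P20 as well. Root and shoot were hybridized to AraGene 1.0 ST arrays, with 3 independent experiments for each of the 6 groups and 18 arrays in all.

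Values are log2 expression values per transcript, and differences between groups are log2 differences, so that a positive difference means a higher level in the group named first. The number of arrays limits their precision. The labelled tissues were checked with root markers (8 of 17 with a transcript) and photosynthetic markers (7 of 12 with a transcript). The mean of the root markers was between 7.31 and 8.66 in root arrays, against 5.60 to 6.77 in shoot arrays. The mean of the photosynthetic markers was between 3.10 and 4.11 in root arrays, against 5.53 to 7.57 in shoot arrays. The median over all transcripts was 5.44 to 5.48 in P0 arrays, 5.55 to 5.58 in P1.25 arrays and 5.55 to 5.66 in P20 arrays. In the P1.25 and P20 groups the third arrays stood apart. Their share of the squared deviation from the group means was 41.9 to 47.3% there, against 34.1 and 35.8% at P0.

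The names of both FER1 and VTL1 came only from the study's table of all transcripts. The 576 rows of it used here ran in order of the p-value of the treatment effect, with FER1 at place 315 and VTL1 at place 71. A gene named there was thus already known to vary with Pi on these arrays. The differences between P0 or P20 and P1.25 are therefore described below without a test. The difference between tissues and the difference of the Pi effect between tissues were not what the table was ordered by, and these were tested. They share their residual spread with the ordering, which favours transcripts that vary little within groups.

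FER1, the plastid iron store, was higher at P0 than at P1.25 in both tissues. In root it had 11.04, 11.06 and 10.99 at P0, against 7.90, 7.75 and 8.64 at P1.25. The groups were far apart, and the P0 arrays lay within 0.1 of each other while the third P1.25 array was above the other 2. The mean difference in root was 2.93 (SE 0.27), which is 7.65-fold. In shoot FER1 had 12.05, 12.05 and 12.10 at P0, against 9.96, 9.95 and 10.85 at P1.25. The P0 arrays were again close together, and again the third P1.25 array was the highest of its group. The mean difference in shoot was 1.81 (SE 0.27), which is 3.52-fold. By the size of this difference FER1 was at place 180 of 38408 transcripts in root and at place 1209 in shoot.

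VTL1, the vacuolar iron transporter-like gene, was also higher at P0 than at P1.25 in both tissues. In root it had 8.70, 8.71 and 8.43 at P0, against 5.16, 5.77 and 5.63 at P1.25. All P0 arrays stood well above all P1.25 arrays, with a mean difference of 3.10 (SE 0.17) or 8.55-fold. In shoot it had 6.63, 6.61 and 6.64 at P0, against 4.71, 4.78 and 5.26 at P1.25. The P0 arrays of the shoot were nearly equal, and the mean difference was 1.71 (SE 0.17) or 3.27-fold. VTL1 was at place 140 of all transcripts in root and at place 1504 in shoot.

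The P0 arrays of both genes were above every P1.25 array in root and in shoot. This was so for 15.5% of all transcripts in root and for 19.2% in shoot. The median difference over all transcripts was -0.09 in root and -0.105 in shoot. As the table that names FER1 and VTL1 was ordered by this effect, nothing is read from their places or from these shares. With 1 array left out at a time, the P0 difference of FER1 was between 2.76 and 3.21 in root and between 1.66 and 2.11 in shoot. That of VTL1 was between 2.92 and 3.22 in root and between 1.61 and 1.88 in shoot.

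**Figure D1:**
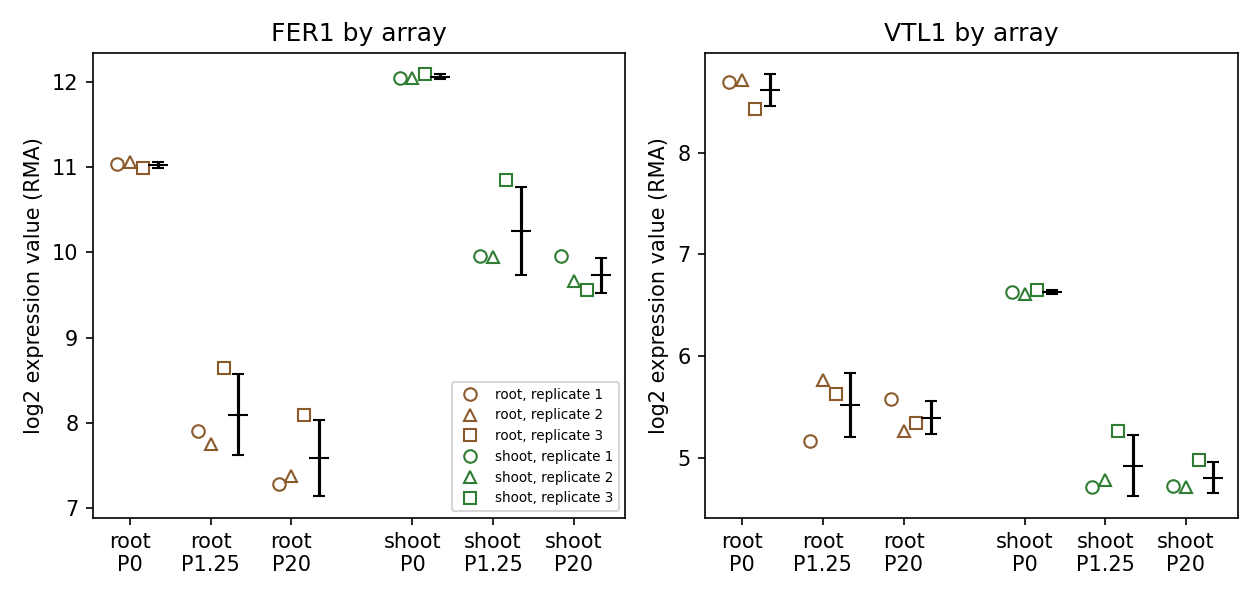
Log2 expression values (RMA) of FER1 and VTL1 in each array, by tissue and Pi supply; symbols are replicates, and the horizontal mark with its bar is the mean ± SD of 3 arrays. The P0 arrays lie above those of P1.25 and P20 in the same tissue, FER1 is higher in shoot and VTL1 is higher in root.

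The differences at excess Pi were smaller. In root FER1 had 7.28, 7.37 and 8.09 at P20, against 7.90, 7.75 and 8.64 at P1.25, a difference of -0.52 (SE 0.27). In both groups the third array was the highest, and the groups overlapped. In shoot FER1 had 9.96, 9.67 and 9.56 at P20, against 9.96, 9.95 and 10.85 at P1.25, a difference of -0.52 (SE 0.27). The first P20 array of the shoot was slightly above the first and second P1.25 arrays, so the groups overlapped, and without the third P1.25 array the difference was -0.22. Without the third array of each P1.25 and P20 group, it was -0.14 in shoot and -0.50 in root. With 1 array left out at a time, the FER1 difference at P20 was between -0.77 and -0.25 in root, where the smallest size was reached without the third P1.25 array, and between -0.67 and -0.22 in shoot.

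VTL1 in root had 5.57, 5.26 and 5.34 at P20, against 5.16, 5.77 and 5.63 at P1.25, a difference of -0.13 (SE 0.17). In shoot it had 4.72, 4.71 and 4.98 at P20, against 4.71, 4.78 and 5.26 at P1.25, a difference of -0.12 (SE 0.17). The P20 and P1.25 arrays of VTL1 overlapped in both tissues, and both differences were smaller than their standard errors. With 1 array left out at a time, the VTL1 difference at P20 was between -0.31 and -0.0037 in root and between -0.22 and 0.06 in shoot.

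The 2 genes had opposite tissue preferences. FER1 was lower in root than in shoot at every Pi supply. Its mean was 11.03 ± 0.04 in root and 12.07 ± 0.03 in shoot at P0, 8.10 ± 0.47 in root and 10.25 ± 0.52 in shoot at P1.25, and 7.58 ± 0.45 in root and 9.73 ± 0.21 in shoot at P20 (SD, n = 3 each). The root minus shoot difference was -1.04 at P0, -2.16 at P1.25 and -2.15 at P20 (SE 0.27 each), with adjusted p of 0.0102, 1.58e-05 and 1.64e-05 in limma with Benjamini-Hochberg adjustment over all transcripts. In fold terms the shoot held 2.05, 4.45 and 4.45 times the root level at P0, P1.25 and P20. The arrays of the tissues did not overlap at any supply. The share of all transcripts with such a gap between tissues is not given here, so nothing is read from it.

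VTL1 was higher in root than in shoot at every Pi supply. Its mean was 8.61 ± 0.16 in root and 6.63 ± 0.02 in shoot at P0, 5.52 ± 0.32 in root and 4.92 ± 0.30 in shoot at P1.25, and 5.39 ± 0.16 in root and 4.80 ± 0.15 in shoot at P20 (SD, n = 3 each). The root minus shoot difference was 1.99 at P0, 0.60 at P1.25 and 0.59 at P20 (SE 0.17 each), with adjusted p of 9.56e-07, 0.014 and 0.016 in limma. The root level was 3.96, 1.52 and 1.51 times the shoot level at P0, P1.25 and P20. At P1.25 the arrays of root and shoot overlapped, as the third shoot array was above the first root array.

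The tests of tissue called 2 of 2 genes at each supply, with FER1 lower and VTL1 higher in root. Tissue differences were common on these arrays. They were called for 33% of all transcripts at P0 (17.9% higher and 15.1% lower in root), 39.3% at P1.25 (22.3% higher and 17% lower) and 37.4% at P20 (21.4% higher and 16% lower). In bulk tissue, a lower share of the cells that express a gene and less RNA per cell cannot be told apart.

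In order of level, FER1 was highest in shoot at P0, then in root at P0, shoot at P1.25, shoot at P20, root at P1.25 and root at P20. Neighbours in this order overlapped between shoot at P1.25 and shoot at P20, and between root at P1.25 and root at P20. For VTL1 the order was root at P0, shoot at P0, root at P1.25, root at P20, shoot at P1.25 and shoot at P20. The 4 groups at P1.25 and P20 overlapped from neighbour to neighbour in that order, whereas the P0 groups stood clear of them. FER1 in root at P0 thus exceeded FER1 in shoot at P1.25, and VTL1 in shoot at P0 exceeded VTL1 in root at P1.25, without overlap of arrays. The order and its overlaps are a description, as no share of all transcripts is given beside them.

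The effect of P0 was larger in root than in shoot for both genes. For VTL1 the root effect exceeded the shoot effect by 1.38 (SE 0.25), or 2.61-fold, with an adjusted p of 0.00234 in limma. For FER1 it exceeded the shoot effect by 1.12 (SE 0.38), or 2.17-fold, with an adjusted p of 0.0746. Both passed the threshold of 0.1 used for this comparison, at which 17.1% of all transcripts were called, 8.11% with the root effect higher and 8.98% with it lower. The tissue gap of FER1 was accordingly narrower at P0 than at P1.25, whereas that of VTL1 was wider.

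The VTL1 call was kept in every fit tried, with an adjusted p between 0.00204 and 0.00791 when 1 array was left out. The FER1 call was lost without any single P0 array of root or shoot, without the first or the second root array at P1.25, or without the third shoot array at P1.25. Over these and the other arrays left out, the FER1 difference was between 0.82 and 1.39 and its adjusted p between 0.0228 and 0.169. Without the third array of each P1.25 and P20 group the FER1 difference was 1.09 with an adjusted p of 0.00031 in limma. Those arrays stood apart in these same data, and leaving them out lowers the spread within groups. In that fit 29.9% of all transcripts were called for this comparison, against 17.1% in the main fit. This p-value is thus not separate support for the FER1 call.

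The difference of the P20 effect between root and shoot was 0.003 (SE 0.38) for FER1 and -0.011 (SE 0.25) for VTL1. Neither was called in limma (adjusted p 0.999 for both), nor was either under an unadjusted p of 0.05. Of all transcripts, 0.0104% were called in this comparison. Without the third array of each P1.25 and P20 group the value for FER1 was -0.37.

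**Figure D2:**
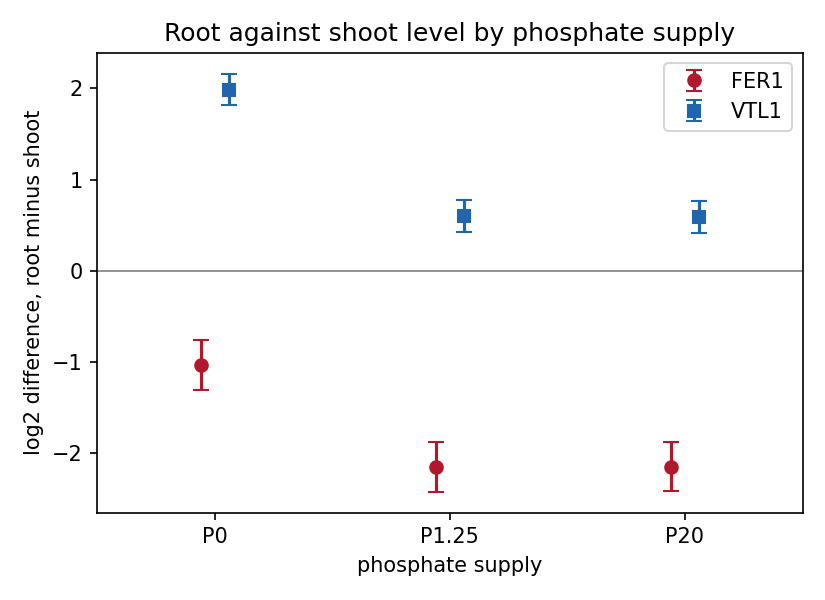
Log2 difference between root and shoot (root minus shoot) for FER1 and VTL1 at P0, P1.25 and P20; points are differences of group means of 3 arrays and bars are standard errors from limma. FER1 is below 0 and VTL1 above 0 at every supply, and at P0 both points lie higher than at P1.25, by 1.12 for FER1 and 1.38 for VTL1.

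Markers of the tissues moved with Pi supply as well. In shoot at P0, 7 of 7 photosynthetic markers were called lower than at P1.25 and their mean per array was 5.53 to 5.67, against 6.49 to 7.57 at P1.25. Of the 8 root markers 2 were called higher in shoot at P0, and the mean of all 8 was 6.57 to 6.77 at P0, against 5.69 to 6.02 at P1.25. In root 5 of the 8 root markers were called lower at P0, and the mean of all 8 was 7.31 to 7.41 at P0, against 7.76 to 8.66 at P1.25. The part of these shifts in the values of FER1 and VTL1 was not tested. Most of the markers were named by the study's tables of P0 calls, so nothing is read from these counts. Of all transcripts, 4.54% were called lower at P0 in root, and 6.12% higher and 7.62% lower in shoot. Of the markers named by the platform table, 0 of 3 root markers were called in root or in shoot. The 1 photosynthetic marker so named was called lower in shoot.

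The larger P0 effect in root was not shared by 3 genes of the Pi starvation response, used as a check of the labels. Like FER1 and VTL1, they were named only by the table ordered by the treatment effect. Their change at P0 is therefore a weak check. The sensor genes SPX1 and SPX3 and the sulfolipid synthase SQD2 were higher at P0 than at P1.25 in both tissues, by 2.54 to 5.82 in root and by 3.55 to 7.74 in shoot. Their P0 effect was smaller in root than in shoot by 1.92 for SPX3 (adjusted p 0.00052) and by 1.24 for SQD2 (adjusted p 0.000807) in limma. For SPX1 the difference of -0.46 did not pass (adjusted p 0.481). The signs were thus opposite to those of FER1 and VTL1.

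Related transporters with a transcript were VTL3, VTL4 and VTL5. VTL3 and VTL4, which were named by the platform table and thus not chosen by Pi effect, were dim. VTL3 averaged 4.26 ± 0.22 at P0 and 3.98 ± 0.52 at P1.25 in root, and VTL4 averaged 3.54 ± 0.25 at P0 and 3.16 ± 0.30 at P1.25 in root (SD, n = 3 each). The P0 difference of VTL3 was 0.28 in root and 0.03 in shoot (adjusted p 0.583 and 0.951 in limma), and that of VTL4 was 0.37 in root and -0.43 in shoot (adjusted p 0.362 and 0.243). None of these passed the test.

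VTL5 was named by the study's table of P0 calls in shoot, so its values are a description. In shoot it had 5.68, 5.34 and 5.57 at P0, against 7.26, 7.47 and 5.46 at P1.25, a difference of -1.20. The first and second P1.25 arrays were above the P0 arrays and the third was among them. For FER1 in shoot the third P1.25 array was likewise the one nearest to P0, there as the highest of its group. In root the VTL5 difference was -0.10. The gene nearest to FER1 and VTL1 in its direction was NRAMP3, which exports iron from the vacuole. It had 9.14, 9.13 and 9.35 in root at P0, against 7.13, 7.15 and 7.33 at P1.25, and its differences of 2.01 in root and 1.93 in shoot were alike in size, with an interaction of 0.08 (SE 0.21, adjusted p 0.863 in limma).

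Other genes of iron handling mostly had the opposite sign at P0 in root. Of 69 genes in lists of vacuolar and plastid transport, uptake, regulation, long-distance transport, removal of peroxide and superoxide, and the regulators of Pi starvation, 32 had a transcript. At P0 in root 1 of the 32 was called higher and 10 lower, where 4.69% of all transcripts were called higher and 4.54% lower. The median of the 32 was -0.53, against -0.09 over all transcripts. At P0 in shoot 4 were called higher and 5 lower, where 6.12% of all transcripts were called higher and 7.62% lower, and the median was 0.05, against -0.105 over all transcripts. By list, the root counts were 1 higher and 2 lower of 7 vacuolar and related metal transporters, 0 higher and 3 lower of 6 uptake genes, 0 higher and 3 lower of 12 regulators, and 0 higher and 2 lower of 4 genes of long-distance transport. No call was made in root or shoot for the 2 carriers of mitochondrial iron, MIT1 and MIT2, or for the ascorbate peroxidase APX1, which differed by 0.76 in root and 0.98 in shoot, below the 2-fold limit. Of the 32 genes, 15 owed their names to the study's tables, which over-represent changed genes. These 15 held 1 of the higher and 8 of the lower calls in root, and 4 higher and 4 lower calls in shoot.

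Among the 17 genes named by the platform table, 0 were called higher and 2 lower in root, and 0 higher and 1 lower in shoot. Of all transcripts named by the platform table, 4.98% were called higher and 2.43% lower in root, and 5.99% higher and 4.07% lower in shoot, so 1 call of 17 in shoot is near that share. Both root calls were regulators of the iron deficiency response. BTSL1, a ubiquitin ligase that holds this response in check, had 5.70, 5.82 and 5.69 in root at P0, against 9.09, 9.36 and 8.41 at P1.25. The groups were far apart, and the fall of 3.22 on the log2 scale had an adjusted p of 4.4e-05 in limma. IMA2, a short iron-responsive peptide gene beside the similar IMA1, had 4.09, 4.38 and 3.44 in root at P0, against 7.74, 7.58 and 7.45 at P1.25. It fell by 3.62 in root (adjusted p 0.0283 in limma) and by 3.03 in shoot (adjusted p 0.0493).

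The called genes named by the study's tables included several of iron uptake in root, each with a lower value at P0. Those tables list P0 calls or are ordered by the Pi effect on these same arrays. The values are thus a description, and neither a call nor its being kept with arrays left out is separate support. The ferric reductase FRO2 had 4.84, 4.93 and 4.75 in root at P0, against 10.43, 11.25 and 5.42 at P1.25, a difference of -4.19. The third P1.25 array was close to the P0 arrays, while the other 2 were far above. The iron importer IRT1 differed by -2.83 and FIT, the transcription factor of the uptake genes, by -2.21. Lower values were also found for BHLH39, a partner of FIT (-2.18), for the nicotianamine synthases NAS4 (-1.91) and NAS1 (-1.42), and for the transporters FPN2 (-1.30) and FPN1 (-1.05). With 1 of the 18 arrays left out at a time, the root call was lost 13 times for BHLH39, 5 times for FRO2, 4 times for IRT1, 3 times for FPN1, 2 times for FPN2 and 2 times for NAS1, and 0 times for FIT and NAS4. FPN1 lost its call by the 2-fold limit, with a difference of down to -0.86 in size and an adjusted p of at most 0.0247 in limma. The call was lost for FRO2 without any single root array at P0, for FRO2 and IRT1 without the first or the second root array at P1.25, and for IRT1 without the first or the second root array at P0. It was lost for FPN2 without the first or the second root array at P1.25, for FPN1 without the first or the second root array at P0 or the third at P1.25, and for NAS1 without the third root array at P0 or the second at P1.25. The BHLH39 call was kept without the third root array at P1.25 and without the first or the third P20 array of root or shoot. In shoot NAS1 (-1.74), NAS4 (-1.59), the ferric reductase FRO3 (-1.40) and VTL5 were lower. PDR9, an exporter of coumarins (2.15), NAS3 (1.35) and YSL1, a transporter of metal-nicotianamine complexes (1.29), were higher along with NRAMP3. The VTL5 call in shoot was lost without any single P0 array or without the first or the second P1.25 array of the shoot, while those of NAS1, NAS4, FRO3, PDR9, NAS3, YSL1 and NRAMP3 in shoot were kept with each array left out.

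By sign, the P0 difference was called higher in root than in shoot for 0 of the 32 genes and lower for 7. Of all transcripts, 8.11% were called higher and 8.98% lower. Lower does not mean weaker here, as FPN2 differed by -1.30 in root and 0.33 in shoot. Of the 7, 4 were named by the platform table, of whose transcripts 8.14% were called higher and 9.78% lower. The other 3 were named by the study's tables of P0 calls in 1 tissue, which is part of this difference. The median of the 32 was -0.50, against 0.001 over all transcripts. The plot of P0 differences shows FER1 and VTL1 to the right of every gene of the lists. As the table that named both was ordered by the Pi effect, nothing is read from this placement.

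**Figure D3:**
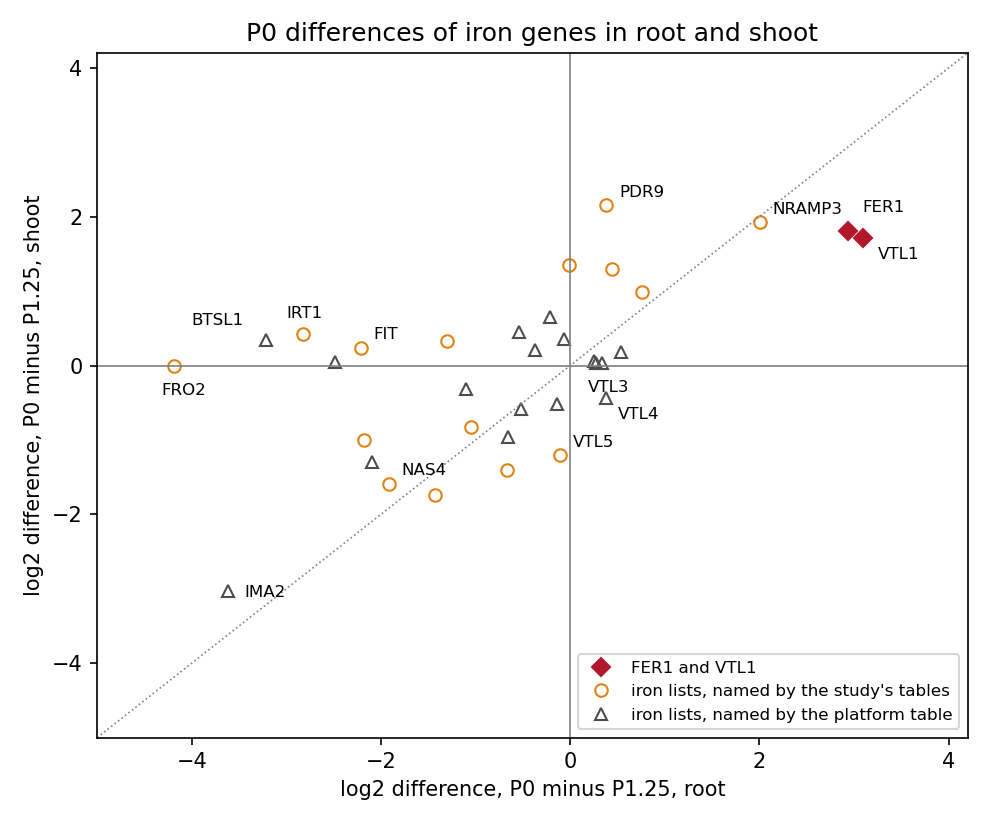
Log2 difference between P0 and P1.25 in root (horizontal) and shoot (vertical) for FER1, VTL1 and the 32 genes of the iron lists; each point is 1 gene, the symbols give the source of its name, and the dotted line marks equal differences. FER1 and VTL1 lie at 2.93 and 3.10 in root and below the dotted line, while FRO2, BTSL1, IRT1 and FIT lie far to the left with small shoot differences.

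At P20 none of the 32 genes was called in limma in root or in shoot, with 4 and 5 of them under an unadjusted p of 0.05. NAS2 and FRD3, which the paper reports as upregulated in root at P20, had no named transcript. They were not among the 32, so this count does not cover them. Of all transcripts, 0.0469% were called in root and 0.0365% in shoot. This count depended on the third arrays. Without those at P1.25 and P20, 15 of 32 genes were called in root, all higher at P20, and 10 in shoot, of which 9 were higher, while 2.61% and 3.1% of all transcripts were called. FRO2 then differed by 1.95 in root (adjusted p 0.00331), IRT1 by 2.06 (adjusted p 0.00318) and NAS4 by 2.11 (adjusted p 0.00429), all in limma. That fit kept only the first and second arrays of each P1.25 and P20 group. As the third arrays stood apart in these same data, these p-values are not separate support. In that fit FER1 differed by -0.50 in root and -0.14 in shoot, and VTL1 by -0.05 in root and -0.03 in shoot.

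In 3 of the 4 groups at P1.25 and P20 the third array had the highest FER1 value of its group. FER1 was higher in the third array by 0.81 in root at P1.25, by 0.77 in root at P20 and by 0.89 in shoot at P1.25, each against the mean of the first and second arrays, and lower by 0.25 in shoot at P20. At P0 the third array differed by -0.06 in root and 0.04 in shoot. For VTL1 the third array differed by 0.16 in root at P1.25, -0.07 in root at P20, 0.52 in shoot at P1.25 and 0.26 in shoot at P20. In root it lay between the other 2 arrays in both groups, and in shoot it was the highest in both. What set the third arrays apart is not given in the labels.

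The transcripts whose values over the 18 arrays were most like each gene were ranked by Pearson's r among 17817 transcripts with 1 gene name, as a description. For FER1 these were AT3G05400 (r = 0.988), AT1G51340 (0.985), AT1G08230 (0.971), AT2G43530 (0.965) and SQD1 (0.963), the last an enzyme of sulfolipid synthesis. Their P0 differences were 1.34 to 2.47 in root and 0.68 to 2.29 in shoot. Like FER1, all of them were higher in shoot than in root in each of the 3 supplies. For VTL1 they were the peroxidase gene AT5G06730 (0.981), AT5G39150 (0.977), AT3G04220 (0.976), DMP1 (0.973) and the germin-like gene GER2 (0.969), with P0 differences of 3.09 to 5.37 in root and 1.51 to 2.88 in shoot. All of these were higher in root than in shoot in each of the 3 supplies. AT5G39150 and GER2 are germin-like genes with close copies in the genome, so their signal is uncertain. The points share 6 groups, so a high r mostly reflects the group means. The shared direction of the tissue and P0 differences thus largely comes with the choice by r.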

How the data were processed

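Root and shoot of Col-0 seedlings at 3 Pi supplies were measured on 18 arrays, 3 per group. The authors normalized the intensities at gene level with the RMA algorithm in Partek Genomics Suite 6.6 and deposited log2 values, which were used as deposited for 38408 transcripts. RMA scales all arrays to a common distribution, so a shift shared by most transcripts would not be seen. The genome build behind the array's transcripts is not given in the sources used here. The authors' own fold changes and p-values in the supplementary tables were not used, and only the pairing of transcripts with loci and the row order were taken from them.

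Groups were taken from the labels. A linear model with 6 group means was fitted to all transcripts with limma 3.58.1 in R 4.3.3 (lmFit, eBayes), with Benjamini-Hochberg adjustment over all transcripts. Adjusted p under 0.1 counted as a call, with a change above 2-fold also required for P0 against P1.25, as in the methods of the study. The script was tested on simulated data. Figures were drawn with matplotlib 3.10.9. Transcripts with several genes were not named, and a gene with several transcripts was represented by the transcript of highest mean. Of all transcripts, 7132 held values identical to another. The FER and VTL genes and the lists were chosen with earlier results of these data known. Named from the lists were up to 4 called genes per list and Pi comparison by size of difference, and for FER1 and VTL1 the 5 transcripts of highest r. Ferritin genes resemble each other, as do VTL genes, and how far the probes of 1 take up signal of another was not tested. Promoter and protein sequences were not used here.

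Replicate numbers counted as a sign of pairing where the deviations of every pair had r above 0.1. So it was for shoot P20 with P1.25 (0.136, 0.13 and 0.291), where the experiments are numbered alike in the labels, but not for root P20 with P1.25 (0.077, 0.127 and 0.225) or for P0. Root with shoot had 0.094, 0.102 and 0.202 at P20, and at most 0.063 at P1.25 and 0.035 at P0. The main fit held no term for the replicate, so it did not use any pairing. A replicate block was fitted only as an alternative.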

Additional observations from a re-analysis of the deposited data

Results flagged for a closer look

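The effect of P0 differed between root and shoot for FER1 and VTL1 and for 4 named genes of the iron lists, by the test of the difference in limma with all 18 arrays. The root effect exceeded the shoot effect by 1.12 for FER1 (adjusted p 0.0746) and by 1.38 for VTL1 (adjusted p 0.00234). It was below the shoot effect for the 4 others, with differences of -3.56 for BTSL1 (adjusted p 0.000747), -2.46 for FIT (adjusted p 0.0232), -1.37 for NAS3 (adjusted p 0.0446) and -1.63 for FPN2 (adjusted p 0.0799). The FPN2 call was lost without 9 of the 18 arrays taken singly, with an adjusted p of up to 0.179, and the NAS3 call without the second root array at P1.25, with an adjusted p of 0.108. The FER1 call was likewise lost without 9 of the 18 arrays. FIT and FPN2 were named by the study's table of P0 calls in root, and NAS3 by that in shoot. As the P0 effect in 1 tissue is part of the tested difference, these 3 calls are not free of that choice. Genes of the iron lists were flagged only if also called for P0 or P20 against P1.25. BTSL1 was thus chosen in part by its P0 call in root. BTSL2, BHLH34 and BHLH115 were also called with the root effect below the shoot effect but, without such a call, were not flagged.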

How the results depend on the processing

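Every alternative kept the sign of the P0 differences of FER1 and VTL1 and moved them by less than the spread between replicates. The tissue differences of both genes at each supply stayed called in 28 of 28 alternatives, although the adjusted p of VTL1 in limma reached 0.0726 at P1.25 and 0.0728 at P20 with 1 array left out. The count of FER1 and VTL1 called for the difference of the P0 effect was 1 at an adjusted p under 0.05, and 1 to 2 with each array left out. With the replicate block, the adjusted p of that difference was 0.046 for FER1 and 0.00403 for VTL1, and all calls of both genes were kept. The genes of the iron lists called at P0 without the 2-fold limit numbered 17 in root and 15 in shoot, against 11 and 9 with it. With the limit 9.23% and 13.7% of all transcripts were called. The share without it is not given here, so nothing is read from the 17 and 15. With the limit and each array left out, 6 to 13 list genes were called in root and 7 to 10 in shoot. The lower root counts were 6 without the second P1.25 array and 7 without the first P1.25, the first P0 or the second P0 array. At P20, where none was called, array weights gave 3 in root and 3 in shoot, with 0.706% and 1.05% of all transcripts called. A mean-variance trend with robust estimation gave 1 in shoot, with 0.0911% of all transcripts called. Leaving out the third array of each P1.25 and P20 group gave 15 in root and 10 in shoot, with 2.61% and 3.1% of all transcripts called. With each array left out the P20 counts were 0 to 3 in root and 0 to 4 in shoot, the highest without the third P20 array of that tissue. The shares of all transcripts called with 1 array left out are not given here. The IMA2 call in shoot was lost without the third P0 array or the first or second P1.25 array of the shoot (adjusted p up to 0.169 in limma). The causes were not tested. No count of FER1 or VTL1 calls was made for P0 or P20 against P1.25, as the table that named both was ordered by that effect.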
